A study of Rattus norvegicus with 6 samples.

Results

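Abcb1a encodes P-glycoprotein, the multidrug efflux pump of the plasma membrane, and its mRNA was measured here together with 7 related efflux transporters in a rat pituitary cell line. The 8 genes were Abcb1a, Abcb1b, Abcb4, Abcc1, Abcc3, Abcc4, Abcc5 and Abcg2, and every probe set that the array annotation ties to a single symbol among them was taken. This gave 9 probe sets, for 7 of the 8 genes, of 31042 on the array. Abcb1b had no probe set of its own. A further probe set is annotated to both Abcb1a and Abcb1b and is described as shared. The genes were chosen by the log2 difference of these same arrays, in which the fall of Abcb1a was already known, so their values are a description. No p is given for them, and whether a probe set passed the call threshold is stated beside the share of all probe sets that did, with nothing read from it.

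GH4C1 cells are a tumour line of the somatolactotroph type, the pituitary cells that make growth hormone and prolactin. Cultures were exposed for 16 h to lentiviral particles at a multiplicity of infection of 5 and then grown for 4 days in regular medium. In 3 cultures the vector carried POU1F1(R271W) followed by an internal ribosome entry site and EGFP, driven by the PGK promoter, and these are called R271W. The series title calls this form of the pituitary transcription factor a dominant negative mutant. The other 3 were controls, for which the design text names a PGK vector with EGFP alone. Both groups are cultures of the same line. The share of cells that took up either vector is not given in the sources used here, and the labels call the replicates biological without saying what was kept separate. Each culture was read on 1 Affymetrix rat array as MAS5 signals, which are probe set brightness values on a linear scale. In such bulk RNA, fewer cells that express a gene and less RNA per cell cannot be told apart.

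ATP-binding cassette (ABC) transporters use ATP to move substrates across membranes. P-glycoprotein expels bulky, mostly hydrophobic drugs and steroids such as dexamethasone, and rodents carry a pair of genes, Abcb1a and Abcb1b, where humans have ABCB1. The Abcc genes encode multidrug resistance proteins, which export organic anions, among them conjugates with glutathione, glucuronate and sulfate, and Abcg2 encodes the breast cancer resistance protein, a half-transporter that works as a dimer.

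The start regions of Abcb1a, of its twin Abcb1b and of Abcg2 are shown because Abcb1a and Abcg2 had the largest opposite changes and the shared probe set reads both Abcb1 genes. Each is the 250 bases before the start of the gene in RefSeq (GRCr8), written on the strand of the gene. Capitals mark matches, on either strand, to the AP-1 site TGAGTCA, the GC box GGGCGG or the CCAAT box.
Abcb1a, chr4:26397649-26397898, minus strand: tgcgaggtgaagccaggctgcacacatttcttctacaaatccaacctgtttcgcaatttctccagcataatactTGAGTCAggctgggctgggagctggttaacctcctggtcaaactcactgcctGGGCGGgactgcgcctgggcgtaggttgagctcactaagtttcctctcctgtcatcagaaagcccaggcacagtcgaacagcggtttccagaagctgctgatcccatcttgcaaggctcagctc
Abcb1b, chr4:26280030-26280279, minus strand: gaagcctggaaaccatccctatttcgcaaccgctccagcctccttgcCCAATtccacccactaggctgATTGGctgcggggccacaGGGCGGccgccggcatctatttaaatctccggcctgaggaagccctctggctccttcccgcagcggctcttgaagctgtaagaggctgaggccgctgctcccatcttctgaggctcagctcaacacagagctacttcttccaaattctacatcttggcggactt
Abcg2, chr4:89075224-89075473, plus strand: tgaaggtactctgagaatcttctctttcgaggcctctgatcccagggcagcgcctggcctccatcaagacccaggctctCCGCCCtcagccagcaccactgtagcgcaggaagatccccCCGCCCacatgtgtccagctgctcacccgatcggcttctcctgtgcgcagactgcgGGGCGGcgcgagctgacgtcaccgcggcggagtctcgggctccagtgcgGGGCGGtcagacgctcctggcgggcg

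Within these windows, Abcb1a held 1 AP-1 match, 176 to 170 bases before the start, and 1 GC box. Abcb1b held 2 CCAAT boxes and 1 GC box, and Abcg2 held 4 GC boxes. Sequences were found for 6 of the 8 genes, and the core that POU1F1 is known to bind in the prolactin and growth hormone promoters, TATNCAT, was searched on both strands in each. It matched in 0 of the 6 windows, and 8.73% of all 33469 windows of this length held it. At that share a window without it is the usual case, so 0 of 6 shows no lack of the core. The 6 windows held 54.0% to 77.6% G and C, where the median over all windows was 51.2%. The AP-1 letters were in 4.05% of all windows, the GC box in 30.5% and the CCAAT box in 34.0%. A match or its absence here describes letters only.

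Across the whole comparison of R271W with control cells, limma called 15.8% of 18625 tested probe sets at an adjusted p under 0.05, 8.57% higher and 7.22% lower. Median signals were 22.4 to 22.9 on control arrays and 25.5 to 26.9 on R271W arrays, and the hybridisation spikes read 0.23 higher on the log2 scale on the latter. For beta-actin, signal at the 3' end over that at the 5' end was 1.81 to 1.82 in controls and 1.86 to 2.06 in R271W cells, while the same ratio for GAPDH overlapped. Of 6 somatolactotroph markers with a probe set, 4 passed the filter on dim signals given below, while Ghrhr and Drd2 lay under it. Gh1 was bright, at 6443 ± 348 (SD, n = 3) in controls and 6338 ± 867 (n = 3) in R271W cells. Pitx1 read 148 ± 9.59 in controls and 157 ± 25.3 in R271W cells. Prl fell from 4332 ± 188 to 3175 ± 171 and Pou1f1 from 2301 ± 90.1 to 1836 ± 86.2 (limma adjusted p = 0.00048 and 0.0049). A second probe set of Pou1f1 fell from 2247 ± 44.4 to 1765 ± 106 (limma adjusted p = 0.0034). Whether either Pou1f1 probe set reads the transgene is not known here.

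Of the 9 single-symbol probe sets of the efflux genes, 8 passed the filter on dim signals, a mean of at least 11.2 over the 6 arrays. Of those 8, 2 were called lower (background 7.22%), both of Abcb1a, and 1 was called higher (background 8.57%), that of Abcg2. Control and R271W arrays did not overlap for 4 of the 8 in the lower direction (background 14.2%) and for 2 in the higher direction (background 19.7%), where 33.9% of all tested probe sets did not overlap in either direction. The direction of change thus differed among genes of this family, from -2.29 to 1.38 on the log2 scale.

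Abcb1a, the P-glycoprotein gene for which the group was chosen, was read by 2 probe sets. On the brighter, 1370464_at, the control arrays gave signals of 115, 178 and 117, and the R271W arrays gave 50.7, 37.2 and 20.8. All 3 R271W arrays were under the lowest control, and R271W replicate 3 was the lowest. The means were 137 ± 35.7 in controls and 36.2 ± 14.9 in R271W cells (SD, n = 3 each). On the log2 scale the change was -1.98 (SE 0.29, 95% confidence interval -2.60 to -1.36), a 3.94-fold difference between geometric means, as are the folds below. The second probe set, 1370465_at, gave 139, 128 and 121 in controls and 21.5, 34.7 and 24.5 in R271W cells. These groups did not overlap either, and here R271W replicate 1 was the lowest, so the order of the R271W cultures differed between the probe sets. Its change was -2.29 (SE 0.22, interval -2.76 to -1.82), 4.90-fold. Among all tested probe sets, 0.0591% had a lower log2 change than 1370464_at and 0.0161% than 1370465_at.

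The shared probe set, 1370583_s_at, cannot separate Abcb1a from Abcb1b, which encodes the other rodent P-glycoprotein. Its control signals were 154, 106 and 120.1, and its R271W signals were 45.6, 34.7 and 35.7. All R271W arrays were below all controls, and the log2 change was -1.70 (SE 0.20, interval -2.13 to -1.27), 3.25-fold. It was therefore close in size to the changes of the probe sets of Abcb1a alone, with intervals that overlap theirs. How the signal of the shared probe set divides between the paralogs, and whether the probes of Abcb1a also read Abcb1b, was not tested.

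**Figure D1:**
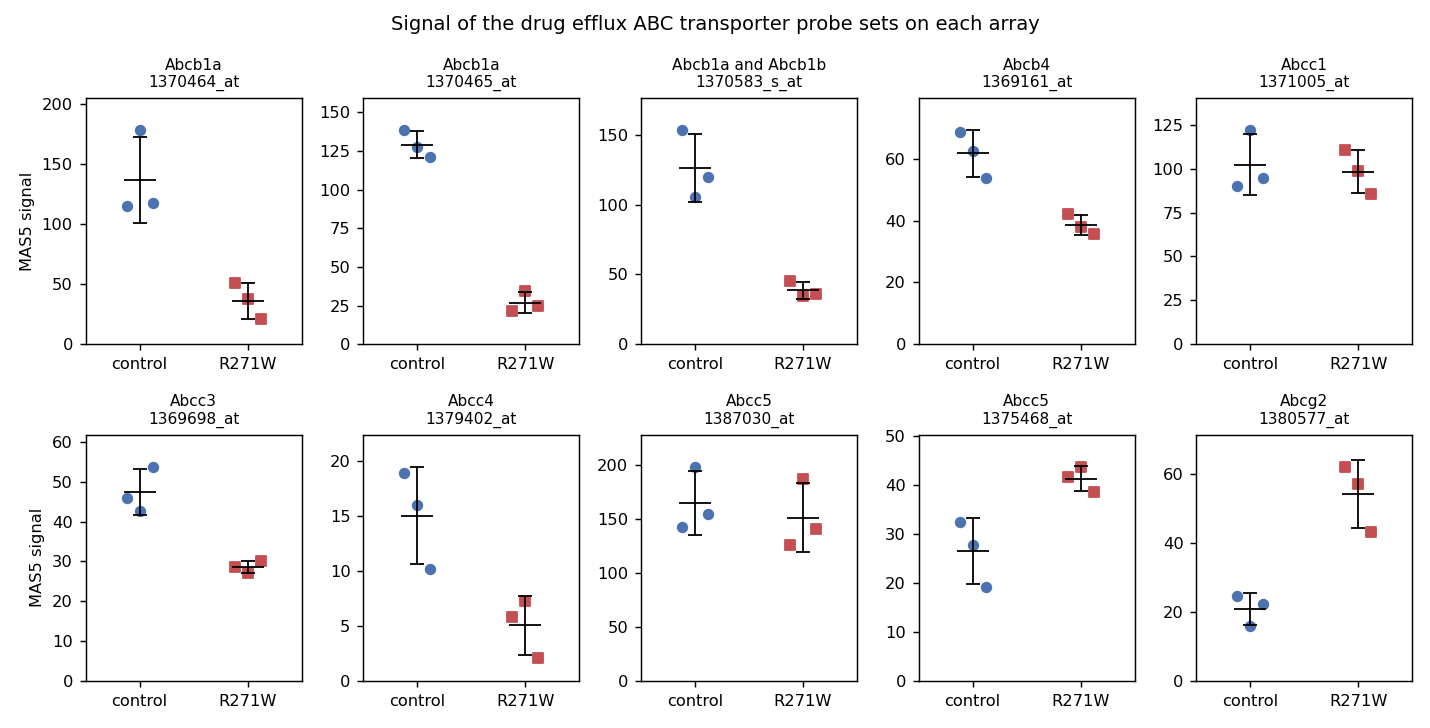
MAS5 signal (linear scale from 0, each panel with its own axis) of each probe set on the 3 control arrays (circles) and the 3 R271W arrays (squares), with the group mean and SD as bars. The 3 probe sets reading Abcb1a fell without overlap between groups, Abcg2 lay higher on all R271W arrays, and Abcc1 overlapped.

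Abcb4 encodes the phosphatidylcholine floppase of the bile canaliculus, a close relative of P-glycoprotein that moves lipid more than drugs. Its signals were 68.8, 62.7 and 53.8 in controls and 42.1, 38.0 and 35.8 in R271W cells. The groups did not overlap, but the log2 change of -0.67 (SE 0.22, interval -1.14 to -0.21) did not reach the call threshold. Abcb4 was called lower when arrays were scaled by quantile, median or 75th percentile, with a filter at the 60th percentile, without the intensity trend and with robust eBayes. The scalings also lowered the median log2 change of all tested probe sets, from 0.07 to -0.0016, -0.13 and -0.014.

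Abcc3 encodes MRP3, a basolateral exporter of glucuronides. It gave 45.9, 42.7 and 53.8 in controls and 28.6, 27.1 and 30.2 in R271W cells, again with every R271W array below the controls. Its log2 change was -0.72 (SE 0.25, interval -1.27 to -0.18) and was not called, although it was called lower under the same 3 scalings and without the intensity trend. Abcc4 encodes MRP4, which exports cyclic nucleotides and prostanoids. Its signals were 18.9, 16.0 and 10.2 in controls and 5.80, 7.29 and 2.07 in R271W cells. The probe set lay under the filter on dim signals and was not tested in the main comparison. Its log2 change of -1.71 had an SE of 0.86 when no filter was used and an interval of -3.54 to 0.11, so the size of the difference was poorly set at this brightness.

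Abcc1 showed no difference of a set direction, and the probe sets of Abcc5 disagreed. Abcc1 encodes MRP1, an exporter of glutathione conjugates and leukotriene C4. Its signals were 89.9, 122 and 94.5 in controls and 111, 98.7 and 85.8 in R271W cells, which overlapped throughout. The log2 change was -0.05 with an interval of -0.41 to 0.31, and it read 0.09 without control replicate 2. Abcc5 encodes MRP5, an exporter of cyclic nucleotides. Its brighter probe set, 1387030_at, gave 142, 198 and 154 in controls and 125, 187 and 141 in R271W cells, with a log2 change of -0.13 (interval -0.49 to 0.22). The dimmer one, 1375468_at, gave 32.5, 27.7 and 19.1 against 41.6, 43.7 and 38.5, with every R271W array above the controls. Its change of 0.67 (interval 0.036 to 1.31) was not called, and read 0.46 to 0.84 over 16 alternatives. The probe sets of Abcc5 thus disagreed in sign, and neither passed.

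Abcg2 was higher in R271W cells. The control arrays gave signals of 24.7, 15.8 and 22.2, and the R271W arrays gave 62.2, 57.2 and 43.3. All 3 R271W arrays exceeded the highest control, with means of 20.9 ± 4.56 and 54.2 ± 9.77 (SD, n = 3 each). The log2 change was 1.38 (SE 0.30, interval 0.74 to 2.02), 2.61-fold between geometric means. Among tested probe sets, 98.5% had a lower log2 change. The probe set is dim, and with a filter at the 60th percentile it was not tested.

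**Figure D2:**
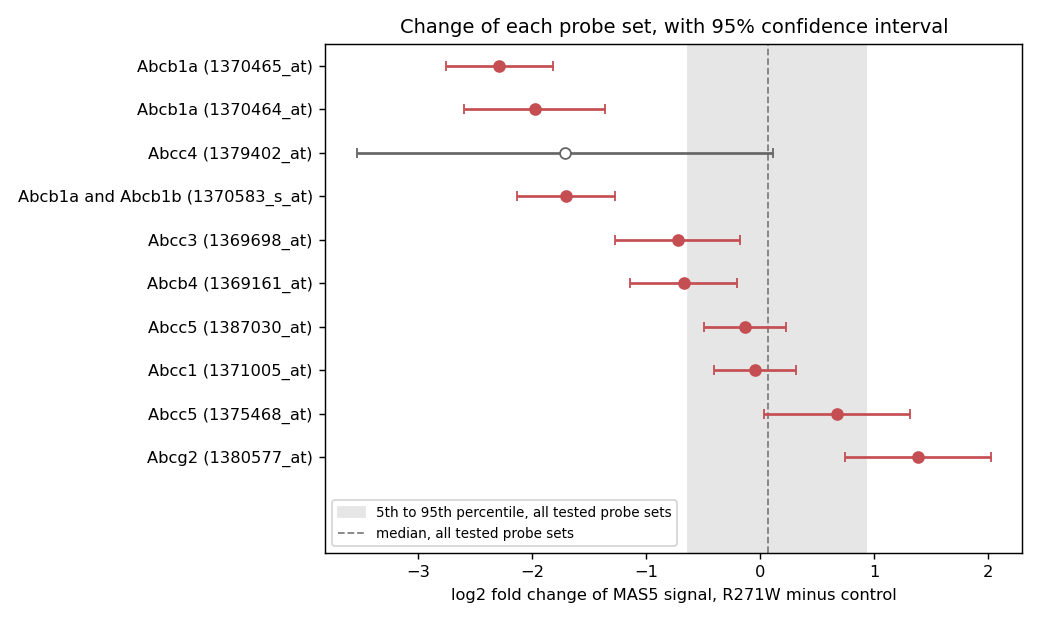
Log2 fold change of MAS5 signal, R271W minus control, for each probe set (points) with its 95% confidence interval (bars). The open point is Abcc4, which was under the filter and whose interval comes from the unfiltered fit, and the shaded band holds the 5th to 95th percentile of all tested probe sets, -0.63 to 0.93. Both Abcb1a probe sets and the shared one lie left of the band with their whole intervals.

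Since the arrays differed in median signal, Abcb1a was also read against the other transporters on the same array, which removes any factor common to an array. Levels of different probe sets are not comparable, so only the shift of the ratio between groups is given. The log2 ratio of Abcb1a (1370464_at) to Abcg2 was lower by -3.36 in R271W cells, with pooled SD 0.56 within groups. Against Abcc1 the shift was -1.93 (SD 0.34) and against Abcc5 -1.85 (SD 0.53). Against Abcb4, its neighbour in the genome, it was -1.31 (SD 0.47), and against Abcc3 it was -1.25 (SD 0.61). In these 5 ratios the R271W arrays did not overlap the controls and were lower. For Abcc4 the shift was -0.26 (SD 0.52) and for the shared probe set -0.28 (SD 0.56), both with overlapping arrays and within the spread. The ratios share the Abcb1a values and are not independent of each other. The fall of Abcb1a was known when the genes were chosen, so lower ratios to members that changed less were given in advance. They describe the size of the shift and are no further support for the fall.

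**Figure D3:**
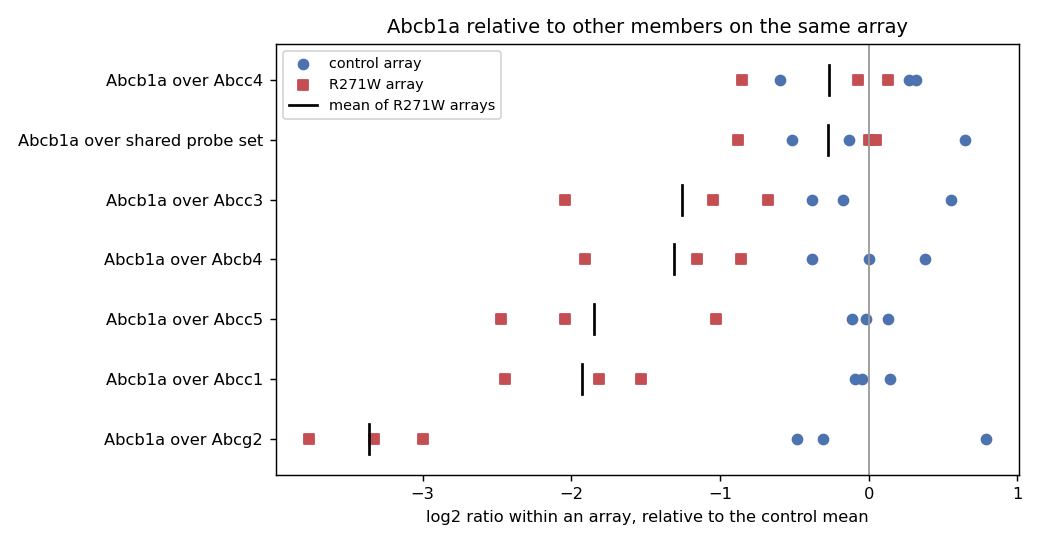
Log2 ratio of Abcb1a (1370464_at) to each other transporter within an array, set to 0 at the control mean, for control arrays (circles) and R271W arrays (squares), with the R271W mean as a bar. Abcb1a fell relative to Abcg2, Abcc1, Abcc5, Abcb4 and Abcc3, and the ratios to Abcc4 and the shared probe set overlapped.

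Abcb4, Abcb1b and Abcb1a lie side by side on rat chromosome 4 in the RefSeq table. The 5 protein-coding genes on each side were read because position played no part in choosing the transporters. Of these 10 genes 7 had a probe set, 6 were tested and 3 rose, against 9.87% of 10143 genes called higher overall. Their median log2 change was 0.43, and that of all genes was 0.06. Crot, which lies next to Abcb4 and encodes peroxisomal carnitine octanoyltransferase, rose from 67.0 ± 14.3 to 143 ± 6.99 (log2 1.12, SE 0.18, limma adjusted p = 0.00079). Its second probe set read 0.80 without passing (limma adjusted p = 0.0852), and a dim one was not tested. Sri encodes sorcin, a calcium-binding protein known for being amplified together with P-glycoprotein genes in drug-resistant cells. It rose from 624 ± 38.0 to 853 ± 58.4 (log2 0.45, limma adjusted p = 0.0023), and by 0.46 on its second probe set (limma adjusted p = 0.0081). Without the intensity trend the call on its brighter probe set ended (0.0689).

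Adam22, a catalytically inactive disintegrin of neurons, rose from 88.4 ± 11.9 to 154 ± 7.85 (log2 0.80, limma adjusted p = 0.0019), while its dimmer probe sets read -0.26 and -0.17 and missed the threshold. Rundc3b, next to Abcb1a, had signals of 156 ± 28.3 and 155 ± 9.77, a log2 change of 0.01 (SE 0.15). Tmem243 and Elapor2 read 0.27 and 0.42 without passing, Grm3 was too dim to test, and Dmtf1, Slc25a40 and Dbf4 had no probe set of a single symbol here. Between these neighbours, Abcb4 and Abcb1a read -0.67 and -1.98.

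**Figure D4:**
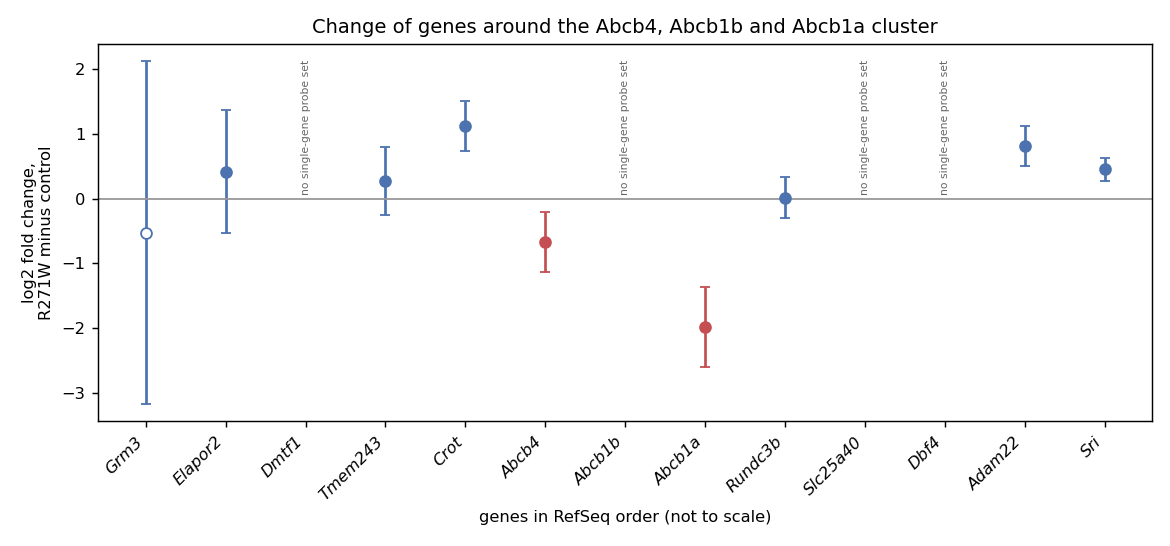
Log2 fold change, R271W minus control, with 95% confidence intervals, of genes in RefSeq order around the cluster (equal spacing, not to scale), transporters in red and neighbours in blue. The open point, Grm3, was under the filter and has its interval from the unfiltered fit, and Crot, Adam22 and Sri lie above 0 while Abcb4 and Abcb1a lie below it.

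The rest of the ABC family serves lipid, peptide, metal and peroxisomal transport, and some members bind ribosomes instead. Of 29 other ABC genes with a probe set 19 were tested, 4 rose and 3 fell, beside 9.87% and 8.98% of all genes. Their median log2 change was -0.06 (all genes 0.06). With arrays centred on the median, which moves the median change of all probe sets by about -0.20 (from 0.07 to -0.13), 5 were called, each lower. Without the intensity trend 1 was called, Abcg1, and the adjusted p was 0.0774 for Abcb6, 0.0765 for Abce1, 0.0537 for Abcc8, 0.0961 for Abca3, 0.128 for Abcd3 and 0.13 for Abcd2.

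Abcb6, a mitochondrial and lysosomal porphyrin transporter, fell from 332 ± 30.9 to 202 ± 46.7 (log2 -0.74, SE 0.14, limma adjusted p = 0.0035). Abce1, a ribosome recycling factor, fell from 956 ± 18.9 to 735 ± 41.0 (log2 -0.38, limma adjusted p = 0.0035). Abcc8 encodes SUR1, the sulfonylurea receptor of potassium channels. Its signals went from 70.9 ± 5.63 to 44.1 ± 6.92 (log2 -0.69, limma adjusted p = 0.0351). The call of Abcc8 ended without control replicate 1, 2 or 3 (0.0606, 0.114 and 0.108), without R271W replicate 1 or 2 (0.0907 and 0.0991), with a replicate block (0.0538) and without the filter (0.0593).

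Abcg1, a sterol exporter, rose from 49.4 ± 4.46 to 81.5 ± 4.42 (log2 0.73, SE 0.18, limma adjusted p = 0.0154). That became 0.0513 without control replicate 1 and 0.0612 under median centring, and a dimmer probe set read -0.64 without passing. Abca3, a lipid transporter of lamellar bodies, rose by 0.39 on the log2 scale (limma adjusted p = 0.0246), with 0.15 on its second probe set. Leaving out control replicate 2 gave an adjusted p of 0.103, and it was 0.0799 and 0.0669 without R271W replicates 1 and 2. Abcd3 and Abcd2, which carry fatty acids into peroxisomes, rose by 0.47 and 0.52 (limma adjusted p = 0.029 and 0.0315).

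Both Abcd calls ended under quantile normalization (0.054 and 0.0598) and median centring (0.165 and 0.17), as that of Abca3 did under median centring (0.25). Centring on the 75th percentile gave 0.0656 for Abca3, 0.0642 for Abcd3 and 0.0683 for Abcd2. Leaving out control replicate 1, 2 or 3 gave Abcd3 an adjusted p of 0.0564, 0.0902 or 0.0719, and it was 0.115 without R271W replicate 1. For Abcd2 it was 0.127 without control replicate 2, and 0.0601 and 0.103 without R271W replicates 1 and 3. Abca1, the cholesterol exporter, read -0.07 on its brightest probe set, but 1383355_at fell by 0.71 (limma adjusted p = 0.0051) from 150.3 ± 22.2 to 91.1 ± 6.67. The dimmer 1394490_at and 1384381_at read -0.13 and -0.36, with overlapping arrays and without passing. The probe set 1383355_at is named after its value was seen. So is Abcc10, which lay under the filter on dim signals and was not tested in the main comparison. It gave 9.09, 2.22 and 1.67 in controls and 32.7, 18.4 and 25.4 in R271W cells, without overlap. Its log2 change was 2.94, with an interval of 1.13 to 4.76 and a limma adjusted p of 0.0432 when no filter was used. Abca8a, also under the filter, went the other way without overlap, from 6.80 ± 3.44 to 1.16 ± 0.53. Its log2 change was -2.51 (interval -4.90 to -0.12, limma adjusted p = 0.225, no filter). The remaining ABC genes under the filter overlapped, and the share of all dim probe sets without overlap was not computed.

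**Figure D5:**
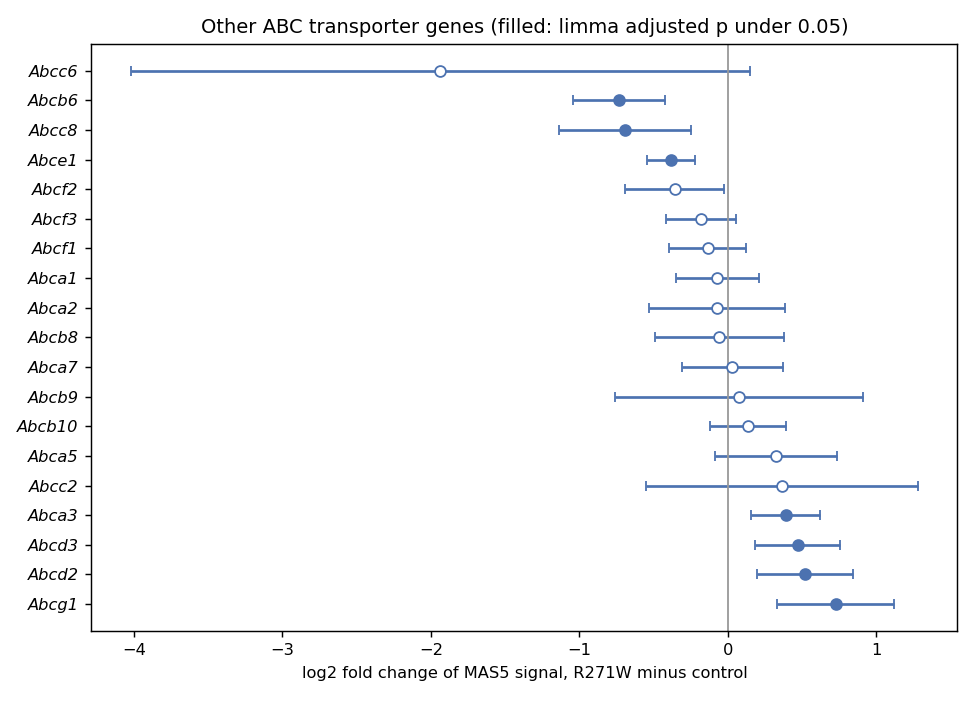
Log2 fold change of MAS5 signal, R271W minus control, of the 19 tested ABC transporter genes outside the efflux group, with 95% confidence intervals (bars), filled where the limma adjusted p was under 0.05. Abcb6, Abcc8 and Abce1 fell and Abcg1, Abcd2, Abcd3 and Abca3 rose, with no called change as large as those of Abcb1a.

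Among 28 genes listed as regulators of drug transporter genes (xenobiotic receptors, stress factors and general promoter factors), 19 were tested and 3 fell, beside 9.87% of all genes called higher and 8.98% lower. The median log2 change was -0.06 (all genes 0.06). Foxo1, a forkhead factor restrained by insulin signalling, fell from 217 ± 20.5 to 113 ± 5.02 (log2 -0.94, SE 0.12, limma adjusted p = 0.00019), while dimmer probe sets read -0.18 and 1.17 without passing or being tested. Cebpb, a leucine zipper factor, fell from 582 ± 56.2 to 331 ± 46.3 (log2 -0.82, limma adjusted p = 0.00026). Nfe2l2 encodes NRF2, the oxidative stress factor that acts on several Abcc genes. It fell from 1007 ± 35.3 to 827 ± 34.2 (log2 -0.29, limma adjusted p = 0.0167). That call ended under quantile normalization (0.0743), without the intensity trend (0.133), without control replicates 2 and 3 (0.0765 and 0.0569) and without R271W replicates 1 and 2 (0.0519 and 0.0565).

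Glutathione conjugation supplies substrates to MRP1. Of 20 tested genes in this list 3 rose and 4 fell, beside 9.87% of all genes called higher and 8.98% lower. The median was -0.04 (all genes 0.06). Gclm and Gclc, the subunits of the rate-limiting enzyme of glutathione synthesis, fell by 0.73 and 0.47 (limma adjusted p = 0.00032 and 0.0044), and the second probe set of Gclc fell by 0.69 (limma adjusted p = 0.003). Gclm went from 371 ± 15.3 to 225 ± 19.7. Among transferases, Gsta4, which conjugates the lipid peroxidation product hydroxynonenal, rose from 922 ± 94.3 to 1657 ± 78.5 (log2 0.85, limma adjusted p = 2.05e-05). The microsomal enzyme Mgst3 rose by 0.74 (limma adjusted p = 0.00048) and Gstt3 by 0.86 (limma adjusted p = 0.0016). Gsto1 and Mgst1 fell by 0.50 and 0.39 (limma adjusted p = 0.00019 and 0.0052). Without the intensity trend the calls of Gclc (0.062) and Mgst1 (0.117) ended, leaving 5 of the 7. Gclc, Gstt3 and Mgst1 are named after their values were seen.

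In phase I oxidation, glucuronidation and sulfation, most genes with a probe set were too dim to test. Of 38 phase I genes with a probe set 14 were tested and 2 fell, beside 8.98% of all genes called lower, with a median of 0.11 (all genes 0.06). Nqo1, a quinone reductase driven by NRF2, fell from 540.2 ± 15.3 to 335 ± 55.4 (log2 -0.70, limma adjusted p = 0.00096, or 0.0539 without the intensity trend). Cyp1a1, a cytochrome P450 induced through the aryl hydrocarbon receptor, fell by 1.19 (limma adjusted p = 0.0444). Its call ended without control replicates 1, 2 and 3 (0.133, 0.0947 and 0.0983), without R271W replicates 2 and 3 (0.13 and 0.0605), without the filter (0.0684) and without the intensity trend (0.146). Of 23 glucuronidation and sulfation genes 7 were tested and 2 fell (all genes 8.98%), with a median of 0.25 (all genes 0.06). Ugdh, which makes the glucuronate donor, fell from 1290.4 ± 18.7 to 912 ± 18.7 (log2 -0.50, limma adjusted p = 0.00027). Papss2, which makes the sulfate donor, fell from 181 ± 27.2 to 118 ± 10.6 (log2 -0.61, limma adjusted p = 0.0093, or 0.0536 without control replicate 2 and 0.0712 without the intensity trend). On its second probe set the change was -0.44, with overlapping arrays and without passing (limma adjusted p = 0.114).

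Of 33 uptake transporter genes with a probe set 8 were tested, 1 rose and 1 fell, beside 9.87% of all genes called higher and 8.98% lower. The median was 0.26 (all genes 0.06). Slc22a17, a receptor for lipocalin-2, rose from 43.6 ± 12.8 to 136 ± 30.3 (log2 1.66, SE 0.23, limma adjusted p = 0.00029). Slc22a23, an orphan carrier, fell by 0.50 (limma adjusted p = 0.0492). Leaving out control replicate 1 or 3 gave an adjusted p of 0.146 or 0.159, and the value was 0.152 and 0.103 without R271W replicates 1 and 2, 0.0636 with a replicate block, 0.0633 without the filter, 0.125 without the intensity trend and 0.053 with robust eBayes. Of 14 tested genes for membrane anchors and trafficking of efflux pumps, 1 rose (all genes 9.87%) and 1 fell (all genes 8.98%), with a median of 0.08 (all genes 0.06). Ezr encodes ezrin, which ties P-glycoprotein and MRP2 to actin, and fell from 756 ± 17.5 to 304 ± 26.1 (log2 -1.32, SE 0.09, limma adjusted p = 1.15e-06). Mvp, the major vault protein, rose by 0.87 (limma adjusted p = 0.0204), with 0.0716 and 0.082 without control replicates 2 and 3, 0.0507, 0.0521 and 0.0556 without R271W replicates 1, 2 and 3, 0.052 under median centring and 0.101 without the intensity trend.

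The genes whose profile over the 6 arrays was nearest to that of Abcb1a were found by the root mean square difference of log2 signal, after centring each probe set on its mean, among 10137 genes. They were Nfil3 (0.35), a basic leucine zipper repressor, Dio2 (0.36), the deiodinase that activates thyroid hormone, Deptor (0.40), an mTOR inhibitor, Cd164l2 (0.41) and Fosl2 (0.44), an AP-1 subunit. Pearson correlations with Abcb1a over the 6 arrays were 0.96, 0.94, 0.95, 0.92 and 0.96, and they contain the difference between groups. Nfil3 gave 135, 133 and 139.7 in controls and 64.0, 63.2 and 27.8 in R271W cells. In each of these genes the lowest value was in R271W replicate 3, as on 1370464_at but not on 1370465_at. The search ranked genes by closeness to 1370464_at, so a like order of arrays was built in. Cd164l2 was dim, at 19.4 ± 3.00 and 8.18 ± 5.80, and was not called.

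Abcb1a is also strong in capillary endothelium, so markers of other cell types were read. Of 9 endothelial markers 7 lay under the filter, among them Pecam1, Cldn5 and Kdr with mean signals of 1.24 to 5.35 in controls. Their summed signal was 90.4 to 148 in controls and 102 to 132 in R271W cells, which overlapped. Macrophage and blood cell markers (2 of 7 above the filter, 41.1 to 87.7 against 58.7 to 98.2) and markers of other pituitary cells (3 of 9 above it, 88.3 to 131 against 103 to 126) overlapped too. The summed fibroblast markers fell from between 2918 and 3080 to between 1358 and 1455. This came from Dcn (2770.1 ± 90.4 to 1205 ± 37.1, limma adjusted p = 2.12e-07), while 6 of the 8, among them Col1a1, Col1a2 and Lum, lay under the filter. The part of Dcn-expressing cells in the fall of Abcb1a was not tested.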

How the data were processed

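Each array has 1 deposited intensity per probe set, an unlogged signal. The submitters' processing notes name MAS5 as the authors' tool. Its settings and scaling target were not given in the sources used here. MAS5 scatters widely at low signal, and scaling ties each array to its bright probe sets.

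Groups came from the labels (3 control, 3 R271W). Of 31099 probe sets 57 controls were left out. Of the remaining 31042, 20826 had 1 symbol, 436 several and 9780 had none in the platform annotation used. Symbols were updated by Entrez ID through the RefSeq table of GRCr8. The log2 signals were fitted with limma 3.58.1 in R 4.3.3 (eBayes with an intensity trend, two-sided, Benjamini-Hochberg, threshold 0.05) without further scaling, after a filter at the 40th percentile of mean log2 signal. A gene is represented by its brightest single-symbol probe set. The fit was tested on simulated data. Precision is limited by there being 3 arrays a group.

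The members and the gene lists were chosen with earlier results of these data known. Named were every probe set of the members, every cluster neighbour, the 5 nearest profiles, and from each list up to 4 genes (8 for other ABC transporters) with the smallest adjusted p among those called, or all where 3 or fewer were called. Same-numbered replicates did not deviate together (correlations -0.02 to 0.01), so they were not paired. The alternatives tried were other scalings (quantile, median, 75th percentile), filters (none, 60th percentile), a signal floor or added offset of 3.72 (20th percentile), eBayes settings (no trend, robust), array weights, blocking on replicate number, averaging a gene's probe sets, its other probe sets, and omission of each array. Python 3.11.15 with matplotlib 3.10.9 drew the plots.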

Additional observations from a re-analysis of the deposited data

How the results depend on the processing

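The log2 change of Abcb1a (-1.98) stayed below 0 in the 18 alternatives run, at -1.63 to -2.27 when 1 array was left out and -1.86 to -2.29 otherwise. The shared probe set ranged from -1.55 to -1.90 and Abcg2 from 1.18 to 1.54, over 17 and 16 alternatives. Leaving out 1 array moved Abcc1 between -0.14 and 0.086 (0.046 without R271W replicate 3), the brighter Abcc5 probe set between -0.30 and 0.0074, and the ratio of Abcb1a to the shared probe set between -0.53 and 0.05 (0.048 and 0.025 without control replicate 2 and R271W replicate 3) and to Abcc4 between -0.56 and 0.028.

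Calls among member probe sets numbered 3, 4 with robust eBayes, and 5 under quantile, median or 75th percentile scaling and without the intensity trend. The median log2 change of all tested probe sets was 0.07 in the main fit, and -0.0016, -0.13 and -0.014 under those scalings. Of all calls, 54.29% were higher in the main fit, 49.96%, 18.90% and 36.89% under them, and 59.53% without the trend. The calls added under the scalings, of Abcb4 and Abcc3, were both lower, which is also the direction of this shift. Both were called lower without the trend too, where the median stayed at 0.07. That fit makes no allowance for the wider spread of dim signals, and whether the shift gave the added calls was not tested. Without that trend, calls over all probe sets fell from 2940 to 1065, other ABC genes from 7 to 1, glutathione conjugation from 7 to 5, glucuronidation and sulfation, uptake transporters and membrane anchors each from 2 to 1, and phase I from 2 to 0 (limma, 6 at an unadjusted p under 0.05). The 75th percentile gave 4 other ABC genes and median centring 6 regulators. Phase I had 1 without the filter or with the 60th percentile filter. Uptake transporters had 1 without the filter, with robust eBayes, with the mean over probe sets and with the replicate block, which otherwise ended only the call of Abcc8 among the genes named. Leaving out 1 array gave 2042 to 2673 calls over all probe sets, 3 to 7 other ABC genes (3 without R271W replicate 1, 4 without control replicate 1 or 2), 1 to 3 for glucuronidation and sulfation, and 1 to 2 for phase I, uptake transporters and membrane anchors. The cause was not tested. Dim probe sets limit the rest: Abcc4 lay under the filter, and Abcg2 and Abcc3 were not tested at the 60th percentile filter.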
